A study of Saccharomyces cerevisiae with 15 samples.

Results

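The second wave of the transcriptional response to glutamine depletion in Saccharomyces cerevisiae was measured as the change in transcript abundance from 7 to 24 min after the N-downshift. The comparison used 6 of the 15 arrays of the series, 3 labelled 24 min and 3 labelled 7 min, paired by the culture they came from (BY013, BY009 and BY010). All 5498 probe sets assigned to a single S. cerevisiae gene were tested, and they represent 5449 genes. Probe sets are called transcripts here.

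All samples came from the wild-type strain YSBN6, a prototrophic laboratory strain, grown in bioreactor batch cultures on glucose with glutamine and proline as the nitrogen sources. Glutamine, which supports fast growth, ran out first, and the cells then had to use proline, which supports slow growth. The 3 cultures were independent and each has samples labelled -10, 7 and 24 min relative to the time at which glutamine was no longer detected. The label -10 min is nominal: the study's sampling records place that steady-state sample earlier than its label in all 3 cultures, and at a different time in each. Culture BY013 was also sampled at 6 further times. No array of the series came from a culture kept on glutamine in parallel, so time in the batch and glutamine depletion cannot be told apart in any of the changes below.

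Yeast cells repress the genes for using poor nitrogen sources while a good source is present, a control called nitrogen catabolite repression (NCR), which acts through the GATA-type factors Gln3, Gat1, Dal80 and Gzf3 and the regulator Ure2. The kinase complex TORC1 signals nitrogen sufficiency and keeps the genes for ribosomal proteins and for ribosome assembly active. When TORC1 activity falls, the repressors of ribosome genes become active, and the stress factors Msn2, Msn4 and Gis1, the kinase Rim15 and autophagy are released from inhibition.

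Most of the transcriptome changed between 7 and 24 min. Of the 5498 transcripts, 4145 (75.4%) passed the test at an adjusted p-value under 0.05, 2544 (46.3%) higher and 1601 (29.1%) lower at 24 min. The median log2 change over all transcripts was 0.09, with quartiles of -0.19 and 0.34. Changes over 2-fold were fewer and leaned the other way: 226 transcripts (4.11%) were more than 2-fold higher and 386 (7.02%) more than 2-fold lower, 612 (11.1%) in all. The asymmetry grew with size, as 34 transcripts rose and 184 fell by more than 4-fold, 2 rose and 77 fell by more than 8-fold, and 16 fell by more than 16-fold. The 3 values at 24 min did not overlap with the 3 values at 7 min for 4401 transcripts (80.0%). Of the 4145 transcripts that passed, 4133 had 1 sign of change across the 3 cultures, and 527 transcripts changed by more than 2-fold the same way in every culture.

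The cultures differed at 7 min in how many transcripts had moved, a description with no test. Between -10 and 7 min, 156 transcripts had changed by more than 2-fold in BY013 and 98 in BY010, but 28 in BY009. From 7 to 24 min the counts were 695 in BY009, 607 in BY010 and 580 in BY013; the 7 min array enters both counts and the -10 min samples were not taken at 1 common time. Without BY009, 4297 transcripts passed and 595 of them were over 2-fold; without BY013, 3666 and 648. The summed intensity of the arrays lay between 22691203 and 23265907 units at 7 min and between 23308293 and 23775000 units at 24 min. The arrays were scaled to a common distribution by their authors, so a change in the total amount of mRNA per cell would not appear in these values. In samples of whole cultures, a lower level in every cell and a loss in some of the cells cannot be told apart.

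**Figure D1:**
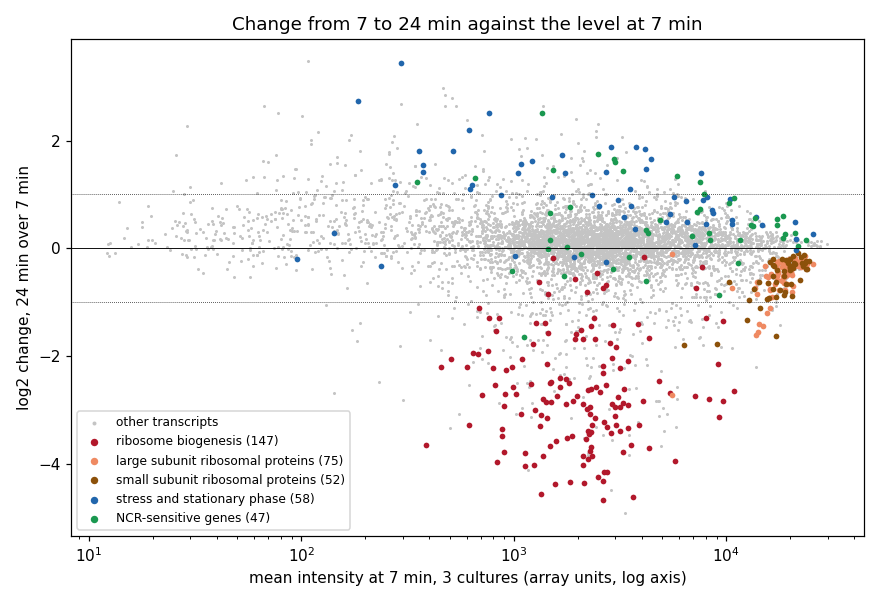
Each point is 1 of 5498 transcripts, plotted by its mean intensity at 7 min over 3 cultures (log axis) and by its log2 change from 7 to 24 min. Dotted lines mark 2-fold; the 147 ribosome biogenesis genes reach a log2 change of -4.67, whereas ribosomal protein genes lie at the bright end with medians of -0.45 and -0.40.

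The machinery that assembles ribosomes fell furthest. Over all transcripts 29.1% were lower and 7.02% were lower by more than 2-fold. Of 147 measured ribosome biogenesis genes, which encode the helicases, GTPases, methyltransferases and scaffold proteins that process rRNA and build the subunits in the nucleolus, 146 were lower at 24 min and 136 were lower by more than 2-fold. The median log2 change was -2.75, with quartiles of -3.39 and -2.05, against 0.09 for all transcripts. These genes made up 136 of the 382 genes that fell by more than 2-fold and 55 of the 77 that fell by more than 8-fold. SSF2, which has a close paralogue in SSF1, was the 1 member that did not pass, at -0.18.

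Among the 12 largest falls, 10 were ribosome biogenesis genes. DBP3, an RNA helicase that processes the large subunit rRNA, read 2369, 2972 and 2559 intensity units at 7 min in BY013, BY009 and BY010, and 117, 105 and 88.4 units at 24 min. The 2 groups lay far apart and the log2 change was -4.67 (SE 0.095, adjusted p = 1.57e-10). NSR1, the yeast nucleolin, read 2969, 4370 and 3525 units at 7 min and 190, 136 and 122 at 24 min, in the same order of cultures. Its 24 min values were all below its 7 min values, for a log2 change of -4.61 (SE 0.16, adjusted p = 4e-09). In both genes BY009 was the highest culture at 7 min but not at 24 min.

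The fall took several of these transcripts to the level of probe sets that have no target in this species. The 95th percentile of the probe sets made for another organism was 68.1 units, and values at or below it are called background here. SYO1, which carries ribosomal proteins of the large subunit into the nucleus, read 1052, 1709 and 1256 units at 7 min and 72.4, 45.9 and 50.4 at 24 min. The 2 lower values of 24 min were at background, and the fall was at least 18.9-fold when they were raised to it (fitted log2 change -4.57, adjusted p = 1.65e-08). DRS1, a helicase of large subunit assembly, fell at least 20.3-fold, from 1412, 1696 and 1572 units to 87.8, 75.7 and 62.7. In 8 transcripts every value was above background at 7 min and none was at 24 min; RRP36, a processing factor of the small subunit rRNA, and BMT5, an rRNA methyltransferase, are among them, and all 8 were picked out after their values were seen.

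The other large falls in the group covered both subunits. UTP13, a component of the small subunit processome, fell by 4.36 on the log2 scale, NOC2 fell by 4.34, PUF6 fell by 4.32 and the GTPase NOG1 fell by 4.25. RPF2, which joins the 5S particle to the large subunit, and NOP2, an rRNA methyltransferase, each fell by 4.16. The standard errors of these 6 changes lay between 0.094 and 0.15, and in none of the 6 did a value at 24 min come within the range at 7 min.

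**Figure D2:**
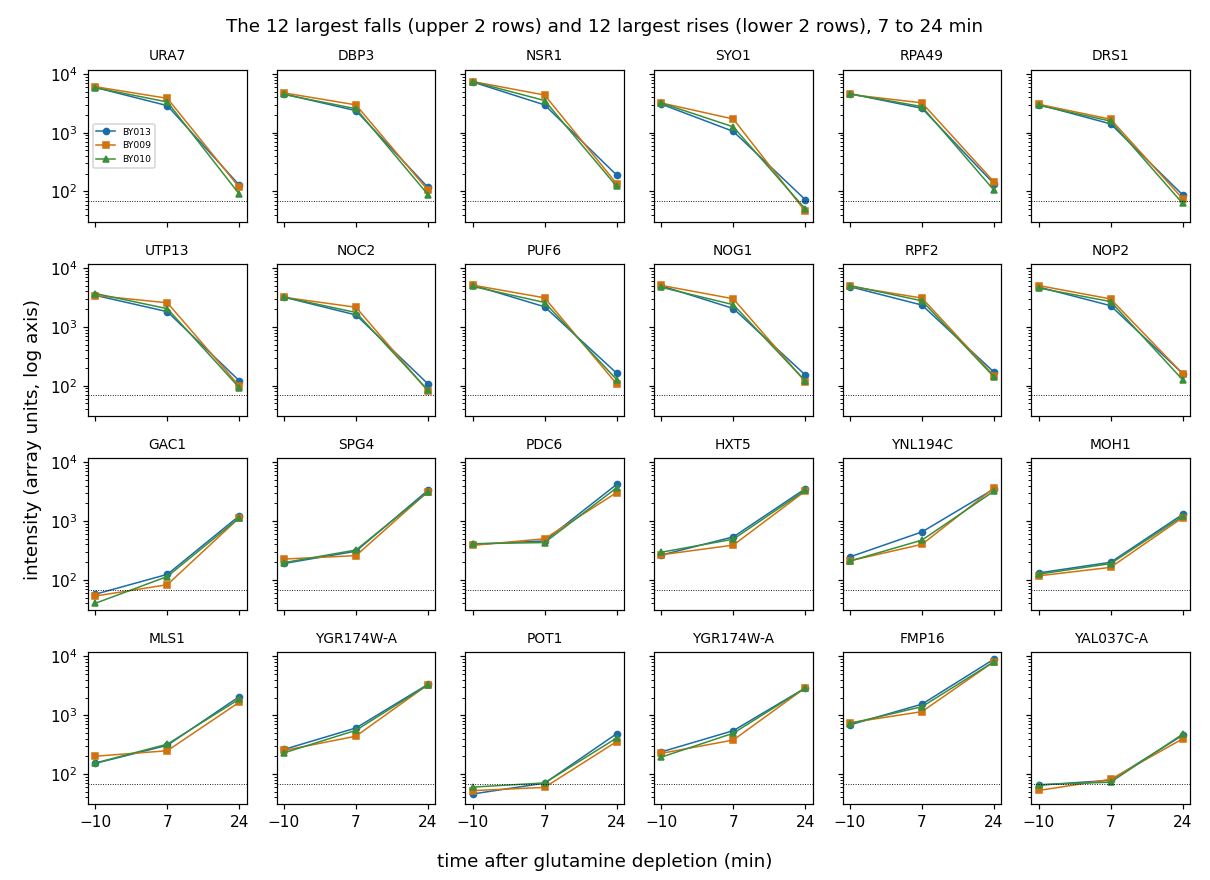
Intensity (log axis) at -10, 7 and 24 min in each of the 3 cultures for the 12 largest falls and the 12 largest rises from 7 to 24 min; the dotted line is the background of 68.1 units. In BY013, BY009 and BY010, DBP3 reached 117, 105 and 88.4 units at 24 min, and SYO1 read 1052, 1709 and 1256 units at 7 min. YGR174W-A appears with both of its probe sets.

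RNA polymerase I, which transcribes the large rRNA precursor, fell with the assembly factors. RPA49, a subunit of that enzyme, read 2600, 3220 and 2779 units at 7 min in BY013, BY009 and BY010 and 135, 146 and 105 at 24 min. The groups did not overlap and the log2 change was -4.49 (SE 0.097, adjusted p = 2.06e-10). RPA43 fell by 3.80, the second largest subunit RPA135 by 3.31 and RPA34 fell by 3.23. Of the 36 measured genes of RNA polymerases I and III and their factors, 25 were lower and 6 higher, with a median of -0.98. The shares of all transcripts were 29.1% lower and 46.3% higher. The 6 genes of this group that rose were not subunits of the enzymes. They were the TFIIIC subunits TFC3, TFC7 and TFC8, the TFIIIB subunit BRF1, the upstream factor RRN10 and MAF1, the repressor of RNA polymerase III. MAF1 read 2389, 2071 and 2414 units at 7 min and 3328, 3278 and 3255 at 24 min, a log2 change of 0.52 (SE 0.056, adjusted p = 1.37e-05) with no overlap. The members of that set of 6 other than MAF1 were singled out after their values were seen.

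Ribosomal protein transcripts, which had barely moved by 7 min, all fell in the second interval. Of 75 measured large subunit genes all 75 were lower at 24 min, as were all 52 measured small subunit genes, with medians of -0.45 and -0.40. In 127 genes 12 falls passed 2-fold, 7 in the large and 5 in the small subunit. Over all transcripts 29.1% were lower and 7.02% lower by more than 2-fold. From -10 to 7 min the large and small subunit groups had medians of -0.02 each, and 3 and 2 members passed as lower. In that interval 968 transcripts (17.6%) were higher and 1072 (19.5%) lower. The 7 min arrays are shared by the 2 intervals, so the values are given side by side. The test of the second change minus the first passed in the negative direction for 74 of 75 large subunit and 49 of 52 small subunit genes, where 45.5% of all transcripts passed that test in either direction.

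The fall of the ribosomal protein genes was not even among members. RPL22B, the minor paralogue of RPL22A, read 5057, 6249 and 5319 units at 7 min and 838, 864 and 807 at 24 min. Its log2 change was -2.72 (SE 0.061, adjusted p = 2.46e-10), whereas RPL22A changed by -0.66. RPS9A fell by 1.80, RPS14B by 1.78 and RPS24B by 1.62 while their paralogues RPS9B, RPS14A and RPS24A changed by -0.66, -0.37 and -0.20. These paralogues were added after their values were seen, and paralogous genes can share probe sequence. At the bright end of the scale large changes were rare: of 190 transcripts above 16384 units at 7 min, 4 fell and 0 rose by more than 2-fold. Whether the arrays compress changes at that brightness was not tested.

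The cultures differed in the depth of the ribosomal protein change. RPL13A read 13621, 13856 and 14153 units at 7 min in BY013, BY009 and BY010, and 3742, 5968 and 4221 at 24 min. The 3 cultures were close together at 7 min and BY009 had fallen least at 24 min. The group medians for the large subunit were -0.55 in BY013, -0.34 in BY009 and -0.46 in BY010, and those for ribosome biogenesis were -2.54, -2.94 and -2.81. BY009 thus had the smallest fall of the first group and the largest of the second, in 1 culture each, with no test.

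**Figure D3:**
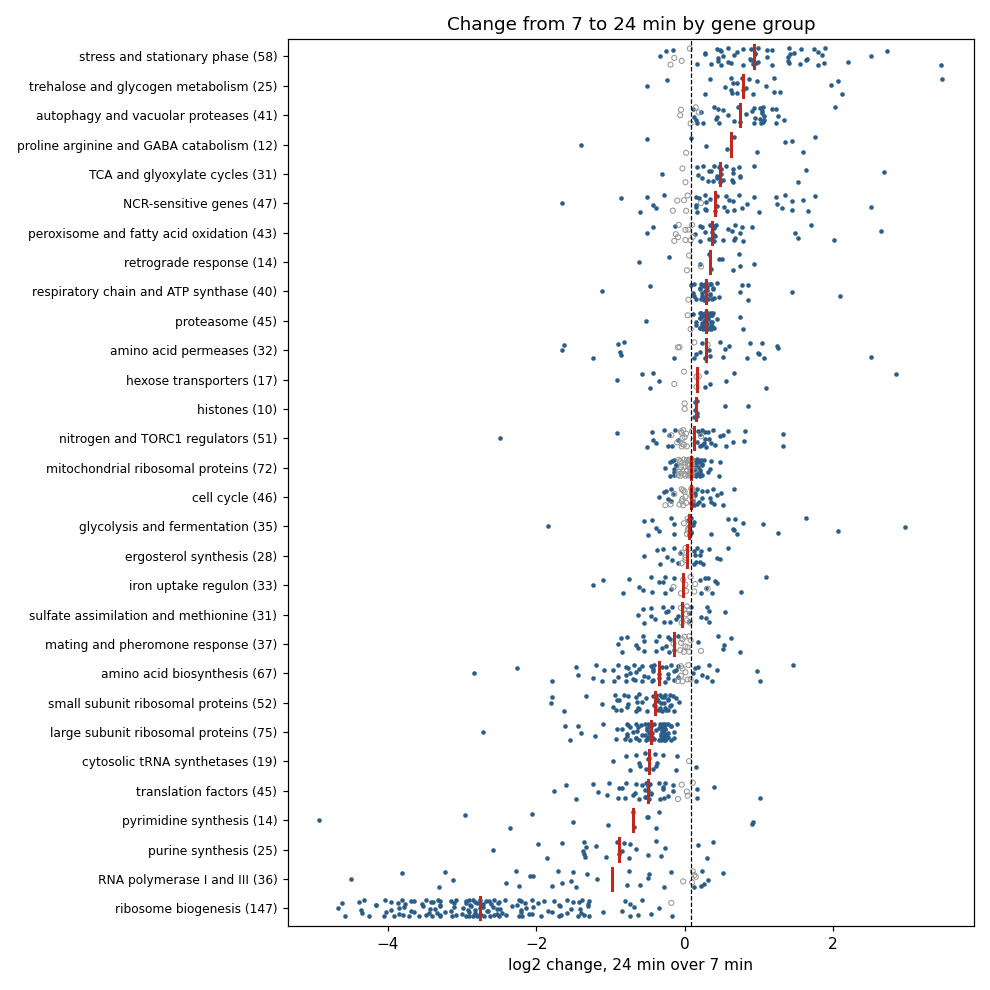
Each point is a gene plotted by its log2 change from 7 to 24 min, filled where it passed the test and open where it did not; red bars are group medians, the dashed line the median of all transcripts (0.09), and the number of measured genes stands in brackets. The medians run from 0.93 for stress and stationary phase genes to -2.75 for ribosome biogenesis.

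Other parts of the translation apparatus had medians close to those of the ribosomal proteins. The counts of this paragraph stand beside 29.1% of all transcripts lower and 46.3% higher. Of 45 measured translation factors 36 were lower and 4 higher, with a median of -0.49; TIF4631, one of 2 genes for the scaffold eIF4G, fell by 1.76, the ribosome recycling factor RLI1 by 1.60, the eIF3 subunit NIP1 by 1.47 and TIF3 by 1.23. HEF3, a second gene for elongation factor 3, rose by 1.02 (SE 0.074, adjusted p = 7.62e-07), from 436, 408 and 488 units to 975, 771 and 970. The 7 and 24 min values of HEF3 did not overlap. Of 19 measured cytosolic tRNA synthetases 17 were lower, none by more than 2-fold, with MES1 (-0.96) the largest, while GUS1 for glutamyl-tRNA was higher by 0.15. Mitochondrial ribosomal proteins, made for a separate ribosome, did not follow the cytosolic ones: 30 of 72 were higher, 10 lower, and their median of 0.09 was that of all transcripts.

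Nucleotide synthesis, which feeds RNA synthesis, fell in both branches. Over all transcripts 29.1% were lower and 46.3% higher, with a median of 0.09. URA7, the major CTP synthase, had the largest fall of any transcript that met the naming rule. It read 2886, 3843 and 3335 units at 7 min in BY013, BY009 and BY010 and 128, 117 and 90 at 24 min, with no overlap and a log2 change of -4.92 (SE 0.12, adjusted p = 3.16e-10). URA1, the dihydroorotate dehydrogenase, fell by 2.96, and the uracil and uridine permeases FUR4 and FUI1 by 2.35 and 2.05. Of 14 pyrimidine genes 12 fell and 2 rose, and URA10, the minor orotate phosphoribosyltransferase, was one of the 2, higher by 0.92. Of 25 measured purine genes 22 fell and 3 rose, with a median of -0.88. IMD4, an IMP dehydrogenase of GTP synthesis, fell by 2.58 from 5520, 6288 and 5868 units to 964, 1023 and 957, and its groups did not overlap. PRS4 and PRS3, which make the phosphoribosyl donor, fell by 1.98 and 1.65, and GUA1, the GMP synthetase, by 1.86. ADE16 rose by 0.38, although its isozyme ADE17, added here for comparison, fell by 0.84.

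Genes of amino acid synthesis leaned lower, with 46 of 67 lower and 12 higher, against 29.1% and 46.3% of all transcripts. Their median was -0.35, against 0.09 for all transcripts. LEU9, one of 2 genes for the first step of leucine synthesis, read 4320, 4934 and 4717 units at 7 min and 656, 714 and 581 at 24 min. Its groups were far apart, for a log2 change of -2.84 (SE 0.064, adjusted p = 2.43e-10). PRO1, the first enzyme of proline synthesis, fell by 2.26, and HOM3, the aspartate kinase, by 1.79. ARO9, an aromatic aminotransferase that also serves in breaking amino acids down, rose by 1.46 from 195, 168 and 206 units to 523, 515 and 528. Genes for sulfate assimilation and methionine moved little as a group, 14 of 31 lower and 9 higher with none over 2-fold; STR3 (-0.63) and STR2 (0.54), which catalyse successive steps from cysteine to homocysteine, moved in opposite directions.

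Genes under nitrogen catabolite repression rose further in the second interval, but not as one block. Of 47 measured NCR-sensitive genes 34 rose and 7 fell, where 46.3% of all transcripts rose and 29.1% fell. The group had a median of 0.41 against 0.09 for all transcripts. In it 10 genes rose by more than 2-fold, as did 4.11% of all transcripts. In the interval from -10 to 7 min the group had a median of 0.29 with 32 higher and 4 lower, against 17.6% and 19.5% of all transcripts. UGA4, the permease for GABA, read 1595, 955 and 1541 units at 7 min and 7629, 7139 and 7935 at 24 min. The 24 min values were close together and all above the 7 min values, of which BY009 was the lowest, and the log2 change was 2.51 (SE 0.13, adjusted p = 8.23e-08). AMD2, an amidase-like gene, rose by 1.66 from 3300, 2522 and 3098 units to 9462, 8952 and 9604.

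The catabolic genes rose with the permease. Of 12 genes for proline, arginine and GABA use, 9 were higher and 2 lower, beside 46.3% and 29.1% of all transcripts. Their median was 0.62, against 0.09 for all transcripts. CAR2, the ornithine aminotransferase of arginine breakdown, had not changed by 7 min (log2 change 0.06, adjusted p = 0.367). It then went from 2562, 2277 and 2606 units to 8984, 7405 and 8866, a log2 change of 1.76 (SE 0.049, adjusted p = 9.56e-10). GDH2, the NAD-dependent glutamate dehydrogenase that releases ammonium, rose by 1.60 from 3086, 2887 and 3039 units to 9978, 8132 and 9334. UGA2, succinate semialdehyde dehydrogenase, rose by 1.45, and neither gene had overlapping groups. ARG80, a regulator of arginine genes, fell by 1.39 to 74.2, 71.7 and 68.8 units, just above background.

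Proline is the nitrogen source that remained, so its genes were also read, outside the naming rule. PUT1, the proline oxidase, rose by 0.29 from 21871, 20637 and 20878 units to 25985, 25683 and 26058, and PUT2, the next enzyme, by 0.57 from 14327, 12796 and 13868 units to 20722, 19825 and 20261. The proline permease PUT4 rose by 0.84, from 11186, 9335 and 10323 units to 18305, 18378 and 18448. None of these groups overlapped, as was so for 80.0% of all transcripts. PUT1 read above 16384 units at both times, and PUT2 and PUT4 did at 24 min. Compression of changes at that brightness was not tested. The change of PUT4 in the second interval did not differ by the test from its change of 0.94 in the first (difference -0.10, adjusted p = 0.517). PUT3, their transcriptional activator, gave 0.02 (adjusted p = 0.828).

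**Figure D4:**
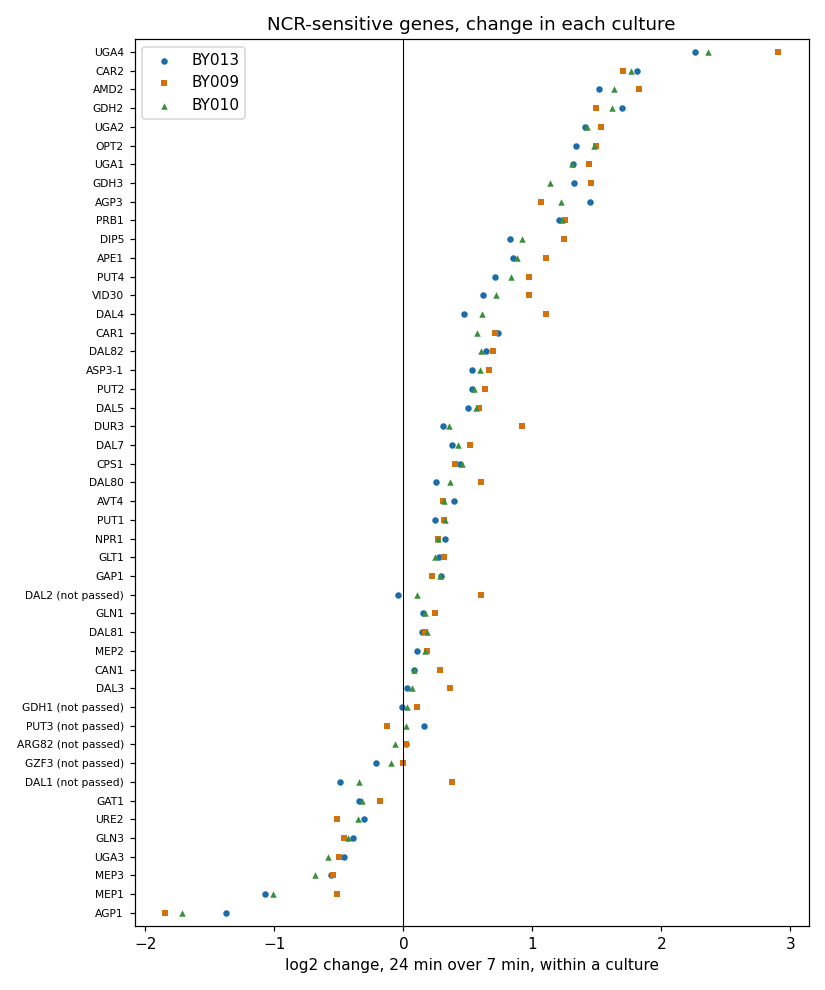
Log2 change from 7 to 24 min within each of the 3 cultures for the 47 measured NCR-sensitive genes, ordered by the fitted change; genes that did not pass the test are marked. UGA4 at the top has a fitted change of 2.51 and AGP1 at the bottom -1.65, and the 3 cultures lie on 1 side of 0 for both.

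Permeases moved in both directions. Of 32 amino acid permease and sensor genes 20 were higher and 8 lower, against 46.3% and 29.1% of all transcripts. AGP1, a broad-range permease, and GNP1, a high-affinity glutamine permease, fell. AGP1 read 6853, 5428 and 6931 units at -10 min, 1010, 1179 and 1175 at 7 min, and 390, 328 and 357 at 24 min. Its fall of 1.65 in the second interval followed one of 2.51 in the first, and the difference of 0.86 passed the test (adjusted p = 0.00277). GNP1 fell by 1.62, from 2044, 2379 and 2102 units to 795, 619 and 713, without overlap. VBA3, a vacuolar permease, was at background in all 3 cultures at 7 min and read 142, 116 and 135 units at 24 min, at least 1.92-fold higher (adjusted p = 3.62e-06). GAP1, the general amino acid permease, was already bright and rose by 0.27; it was added outside the rule.

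The regulators had no common direction. Of 51 genes for nitrogen and TORC1 signalling 24 were higher, 12 lower and 15 did not pass, with a median of 0.12, near the 46.3% higher and 29.1% lower and the median of 0.09 for all transcripts. TOD6, a repressor that binds upstream of ribosome biogenesis genes, was the main exception. It read 937, 946 and 871 units at -10 min, 174, 306 and 214 at 7 min, and 40.6, 34.4 and 46 at 24 min, at background in every culture, so that the second fall was at least 3.31-fold (adjusted p = 7.82e-07). Its partner DOT6 read 5366, 5114 and 5301 units at 7 min and 4959, 5175 and 5223 at 24 min. The DOT6 groups overlapped and its change of -0.04 did not pass (adjusted p = 0.359). IFH1, a coactivator of ribosomal protein genes, fell by 0.91, and its DNA-bound partner FHL1 gave -0.03 (adjusted p = 0.828). SFP1, a further activator of ribosome genes, fell by 0.17. Among the opposing factors STB3 rose by 0.33 and CRF1, a corepressor, by 0.80.

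The GATA factors moved in different directions. GAT1, an activator, read 9115, 9248 and 9313 units at -10 min, 11673, 10872 and 11621 at 7 min, and 9174, 9586 and 9319 at 24 min, a rise of 0.30 followed by a fall of 0.28 (SE 0.034, adjusted p = 3.44e-05). The 24 min values lay below all 7 min values and next to those of -10 min. GLN3, the other activator, fell by 0.43, and URE2, which holds Gln3 in the cytoplasm, by 0.39. DAL80, a repressor of the family, continued to rise by 0.41, from 14344, 11919 and 13689 units to 17125, 18057 and 17600. GZF3 gave -0.10 (adjusted p = 0.103). DAL82, an activator of allantoin genes, rose by 0.65, its partner DAL81 by 0.16, and UGA3, the activator of GABA genes, fell by 0.51 while UGA4 rose.

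Around TORC1, genes of an upstream inhibitor rose. IML1, of the complex that inhibits TORC1 upon nitrogen loss, rose by 0.81 (SE 0.050, adjusted p = 2.56e-07), from 2911, 2854 and 2973 units to 5354, 4781 and 5174. NPR2 and NPR3, of the same complex, rose by 0.47 and 0.36. The groups of IML1 did not overlap. TOR1 rose by 0.38, whereas TOR2 (-0.05), KOG1 (-0.03), LST8 (0.03) and TCO89 (0.12) did not pass, although TCO89 did without the replicate block. The GTPases GTR1 and GTR2 rose by 0.26 and 0.21, while VAM6 (0.10) and SEH1 (-0.02) did not pass and SEA4 was lower by 0.13 at an adjusted p of 0.0496.

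Among the effectors below TORC1, SCH9, the kinase for ribosome genes, rose by 0.27, TAP42 by 0.32 and the permease kinase NPR1 by 0.29, whereas the phosphatase SIT4 fell by 0.22 and TIP41 (-0.01), PPH21 (0.00) and PPH22 (-0.04) did not pass. The kinase RIM15 rose by 0.55, its substrates IGO1 and IGO2 by 0.20 and 0.23, and the stress factors MSN2, MSN4 and GIS1 by 0.18, 1.33 and 0.59. MSN4 went from 1549, 1339 and 1292 units to 3796, 3292 and 3409, so that its groups were apart. HMS1, a factor of filamentous growth, rose from 73.3, 65.9 and 60.6 units to 197, 140 and 169, at least 2.4-fold (adjusted p = 6.1e-05), with 2 cultures at background at 7 min. GCN4, whose output is set by translation, gave -0.09, which did not pass without BY013 (-0.08), without BY010 (-0.07) or after quantile normalization (-0.01). The sensor SSY1 rose by 0.23, and its 2 targets split, STP1 falling by 0.44 and STP2 rising by 0.27. RTG3 of the retrograde pathway fell by 0.21 and RTG1 gave 0.22 (adjusted p = 0.0803). CIN5, an AP-1-like factor, had risen by 1.41 by 7 min and gave -0.18 (adjusted p = 0.285) afterwards.

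Genes of the general stress response and of entry into stationary phase rose as a group. From 7 to 24 min 46.3% of all transcripts were higher, 29.1% lower and 4.11% more than 2-fold higher. Of 58 measured members 51 were higher, 3 lower and 24 were more than 2-fold higher, with a median of 0.93; from -10 to 7 min the median had been 0.40 with 48 higher, where 17.6% of all transcripts were. SPG4, which is needed for survival in stationary phase, read 307, 258 and 322 units at 7 min and 3346, 3179 and 3136 at 24 min. The log2 change was 3.45 (SE 0.10, adjusted p = 1.18e-09), against 0.53 in the first interval, and the difference of 2.92 passed the test (adjusted p = 1.1e-06). MOH1, also of stationary phase, rose by 2.73 from 199, 163 and 189 units to 1298, 1145 and 1209. RTN2, a reticulon, rose by 2.51 and PAI3, the inhibitor of vacuolar proteinase A, by 2.20. HSP30, a plasma membrane heat shock protein, fell by 0.33 (adjusted p = 0.0121) and did not pass without BY013 (-0.31) or without BY010 (-0.28).

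Storage carbohydrate genes rose together for synthesis and for breakdown. Of 25 genes of trehalose and glycogen metabolism 23 were higher and 2 lower, against 46.3% and 29.1% of all transcripts. Their median was 0.78, against 0.09 for all transcripts. GAC1, which targets the phosphatase that activates glycogen synthase, had the largest rise of all transcripts that met the rule. It read 124, 82.7 and 114 units at 7 min in BY013, BY009 and BY010 and 1230, 1140 and 1138 at 24 min, for a log2 change of 3.47 (SE 0.14, adjusted p = 1.44e-08). GIP2, a related targeting subunit, rose by 1.97, and the glycogen debranching enzyme GDB1 and the phosphorylase GPH1 by 2.12 and 2.07. GPH1 went from 3810, 2860 and 3035 units to 13954, 13212 and 13191, and the groups of these 3 genes and of GAC1 were apart. PCL10, a cyclin that with Pho85 inhibits glycogen synthase, fell by 0.51.

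Genes for respiration and for the glyoxylate shunt rose although glucose was the carbon source. Over all transcripts 46.3% were higher and 29.1% lower, with a median of 0.09. Of 31 TCA and glyoxylate genes 28 were higher and 1 lower, with a median of 0.48. MLS1, malate synthase of the glyoxylate cycle, rose by 2.68 from 308, 249 and 322 units to 2080, 1670 and 1888. MDH2 and PCK1 of gluconeogenesis rose by 1.63 and 1.52 and aconitase ACO1 by 0.93, whereas PYC2, a pyruvate carboxylase, fell by 0.30. Of 40 genes of the respiratory chain 37 were higher with a median of 0.29. The isoforms of cytochrome c diverged: CYC7, the minor one, rose by 1.45 from 3868, 2652 and 3170 units to 8561, 9432 and 8294, and CYC1, the major one, fell by 1.12 from 4797, 4873 and 4756 to 2180, 2373 and 2087. The 7 and 24 min groups were apart in both. NDE2, an external NADH dehydrogenase, rose by 2.09. Of 14 retrograde response genes 9 were higher and 2 lower; CIT1 rose by 0.74, IDH2 by 0.73 and IDH1 by 0.65, and DLD3 fell by 0.61.

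Glycolytic genes had no common direction, and the aldehyde dehydrogenases named here moved both ways. Of 35 measured genes of glycolysis and fermentation 21 were higher and 9 lower, with a median of 0.06. PDC6, a minor pyruvate decarboxylase, read 459, 500 and 431 units at 7 min and 4209, 3055 and 3680 at 24 min, for a log2 change of 2.97 (SE 0.10, adjusted p = 3.22e-09). It had not passed in the first interval (0.21, adjusted p = 0.132). The cytosolic aldehyde dehydrogenases ALD2 and ALD3 rose by 2.07 and 1.63 and the mitochondrial ALD5 fell by 1.84. HXT5, a hexose transporter of slow-growing cells, rose by 2.85 from 538, 390 and 492 units to 3553, 3243 and 3336, and HXT7, of high affinity, rose by 1.10. The probe set of HXT7 is of the kind with shared probes, so its value may not be of HXT7 alone. HXT1, the low-affinity transporter of fast growth, fell by 0.91, from 7514, 8343 and 8124 units to 4452, 3705 and 4610. HXT8 was at background in all 6 arrays, so its fitted change of 0.66 is no fold. Of the 17 measured hexose transporter and sensor genes 7 were higher and 5 lower. Beside the counts of both groups, 46.3% of all transcripts were higher and 29.1% lower.

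Genes for degradation rose. Beside the counts that follow, 46.3% of all transcripts were higher, 29.1% lower and 4.11% more than 2-fold higher. Of 41 measured autophagy and vacuolar protease genes 36 were higher and 0 lower, 15 of them more than 2-fold, with a median of 0.74. AMS1, a vacuolar mannosidase delivered by autophagy, rose by 2.03 from 1065, 898 and 935 units to 4203, 3735 and 3857. ATG1, the kinase that starts autophagy, rose by 1.26, ATG39, a receptor for autophagy of the nucleus, by 1.34, and proteinase B, PRB1, by 1.23. Of 45 proteasome genes 42 were higher by small amounts, with a median of 0.29, ECM29 at 0.78 and NAS2 at 0.75 in front and POC4, an assembly chaperone, lower by 0.52. Of 43 genes of peroxisomes and fatty acid oxidation 30 were higher and 3 lower. POT1, the thiolase of beta-oxidation, was at or near background at 7 min with 70, 59.3 and 70.6 units and read 485, 357 and 410 at 24 min, at least 5.95-fold higher (adjusted p = 4.91e-08). PEX18, CRC1 and PXA2 rose by 2.01, 1.70 and 1.52 and PEX2 fell by 0.51.

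Several of the largest rises lay outside these groups. FMP16, a mitochondrial protein, rose by 2.64 from 1545, 1153 and 1399 units to 9009, 8173 and 8122. YNL194C, a protein of membrane eisosomes, rose by 2.79. YGR174W-A, which has no assigned function here, rose by 2.65 and 2.64 on its 2 probe sets, and YAL037C-A by 2.52, from 78.3, 81.3 and 72.6 units, not far above background, to 457, 397 and 477. In all, 81 of 225 genes that rose and 208 of 382 genes that fell by more than 2-fold were in one of the groups described, 36.0% and 54.5%, whereas the groups hold 1181 of the 5449 measured genes (21.7%). The groups were chosen with earlier results of these data known. The shares therefore describe how far the groups cover the changes and are no test of enrichment.

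The remaining groups moved little or in both directions. Their counts stand beside 46.3% of all transcripts higher and 29.1% lower. Of 10 measured histone genes 8 were higher, by 0.16 for HTA1 and HTA2, 0.54 for the linker histone HHO1 and 0.85 for the centromeric CSE4. Cell cycle genes had a median of 0.09, that of all transcripts, with 22 of 46 higher and 7 lower; the G1 cyclins PCL1 and CLN2 rose by 0.51 and 0.43 and FAR1, which arrests cells in G1, fell by 0.34. Of 37 mating and pheromone genes 19 were lower and 6 higher, and among them AGA2 fell by 0.90, STE20 by 0.86, PRM5 by 0.84 and FUS3 by 0.78, while STE7 rose by 0.74. In ergosterol synthesis 13 of 28 were higher and 9 lower, ERG28 at 0.59 and IDI1 at -0.55 being the extremes. In the iron regulon 10 of 33 were higher and 14 lower: the permease FTR1 fell by 1.23 and the mRNA-destabilising protein TIS11 rose by 1.10.

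The second interval differed from the first for many transcripts. The first interval lasted longer than its labels give and differed in length between cultures, because of the nominal -10 min sample, and both intervals share the 7 min arrays. The changes are therefore compared per interval and not per minute. From -10 to 7 min 2040 transcripts (37.1%) passed and 82 of them were over 2-fold. The test of the second change minus the first passed for 2502 transcripts (45.5%), 1525 positive and 977 negative, and 374 differences were over 1 on the log2 scale. Without BY010 it passed for 1552. For ribosome biogenesis, with a median of -0.78 in the first interval and -2.75 in the second, 136 of 147 differences were negative and passed. For stress genes 41 of 58 were positive and passed, for autophagy 31 of 41, and for NCR-sensitive genes 20 of 47, with 9 negative.

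A small set of 50 transcripts turned, passing in both intervals with opposite signs, 36 falling and then rising and 14 rising and then falling. MEP1, an ammonium permease, read 6090, 6264 and 6426 units at -10 min, 9895, 8130 and 9565 at 7 min, and 4703, 5691 and 4760 at 24 min. It was highest at 7 min in all 3 cultures and ended below its starting level, with changes of 0.55 and -0.86. FMP48, a putative kinase, rose by 0.65 and fell by 0.92, from 1611, 1244 and 1474 units at 7 min to 754, 812 and 706. YER053C-A, RSB1 and RPI1 also rose and then fell, with second changes of -0.59, -0.46 and -0.25. In the other direction YOR338W fell by 0.41 and rose by 1.47, from 98.8, 95.5 and 85.8 units to 276, 242 and 259. YKL068W-A, RAD28 and ECM2 followed the same course with second changes of 0.58, 0.42 and 0.40, the groups of ECM2 overlapping. CTF13 was at background in all cultures at 7 min and rose at least 1.27-fold, and HOP2 was at background in all 6 arrays.

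The samples of BY013 at 10 and 14 min place the change within the interval, in 1 culture and without a test. Relative to 7 min the ribosome biogenesis median was -0.64, -1.60 and -2.54 in the samples taken at 10, 14 and 24 min. The large subunit ribosomal proteins stood at -0.04 and -0.13 at 10 and 14 min and reached -0.55 at 24 min. The larger part of the biogenesis fall thus lay before 14 min and the larger part of the ribosomal protein fall after it. Over the 3 cultures, the biogenesis genes had a median level of 2181 units at 7 min and the large subunit genes 18736. Compression of changes above 16384 units was not tested. The medians of NCR-sensitive genes and of trehalose and glycogen genes stood at 0.33 and 0.64 at 14 min and at 0.32 and 0.64 at 24 min.

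After 24 min the groups parted in BY013. At 56 and 120 min the ribosome biogenesis median relative to 7 min was -1.56 and -1.18, above its value at 24 min, whereas the large subunit ribosomal proteins went on to -1.31 and -1.30. UGA4 fell by 2.87 from 24 to 56 min. TOD6, at background at 24 min, read 173 units at 56 min, at least 2.55-fold higher. PDC6 rose by a further 1.76 and SPG4 changed by -0.26. These are values of 1 culture with no replicate.

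**Figure D5:**
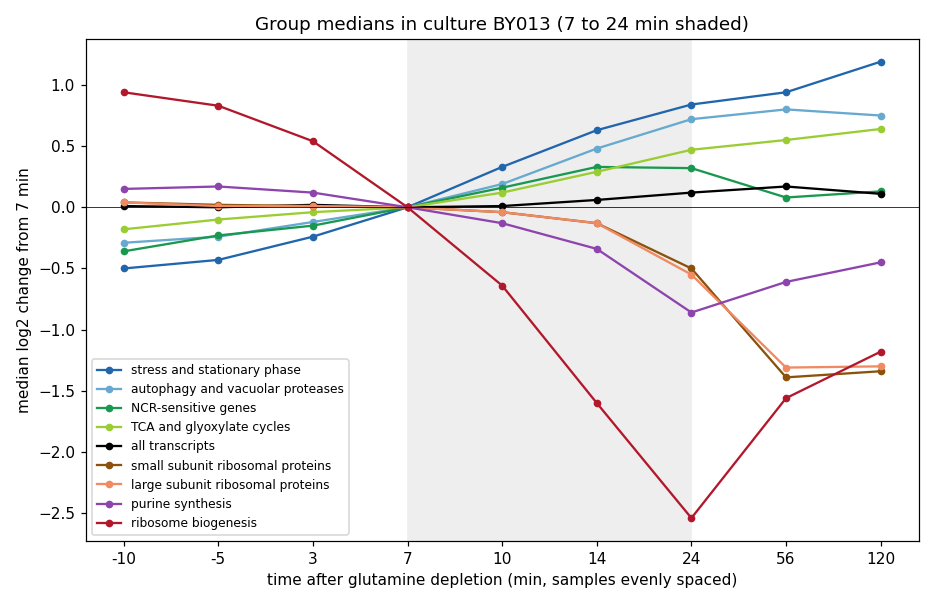
Median log2 change from 7 min of 8 gene groups and of all transcripts in culture BY013 at 9 sampling times, with samples evenly spaced on the time axis and 7 to 24 min shaded; there is 1 array per time. Ribosome biogenesis is lowest at 24 min (-2.54) and large subunit ribosomal proteins at 56 min (-1.31).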

How the data were processed

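The authors hybridised biotin-labelled cRNA to Affymetrix Yeast Genome 2.0 arrays, corrected the background by RMA, used perfect-match probes only, normalized the 15 arrays together with qspline and summarised probes by the Li-Wong model. According to the processing notes of the submitters, this was done in R version 2.10.0, with affy and RMA. The deposited values are linear intensity values, 1 per probe set, and the deposited table was used as it stands, after log2 with no pseudocount; scanner files were not used here. Every one of the 15 columns was matched to a sample by name.

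Gene names came from the platform annotation, updated through gene identifiers to RefSeq symbols. Of 10928 probe sets, 5498 had a single S. cerevisiae gene, 1746 had a gene of the other organism on the array, 1 had several genes and 3683 were not listed and were left out. No coordinates or sequences are given.

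Changes were fitted with limma 3.58.1 in R 4.3.3 on all 15 arrays, with 1 mean per sampled time and culture as a block, a trend of the spread with intensity, and Benjamini-Hochberg adjustment over 5498 transcripts at 0.05. The fit had 4 residual degrees of freedom and 5.52 prior ones. The 7 and 24 min samples are paired because each pair was drawn from the same bioreactor; the deviations of paired samples from their group means correlated at -0.036, 0.026 and 0.189. The scripts were tested on simulated data. Errors of fitted changes are limma standard errors. They rest on a spread pooled over the times with 3 cultures and drawn toward that of transcripts of similar intensity. They do not measure the spread of the 3 paired changes of a gene, which can be wider. For SYO1 those changes had an SD of 0.68, and the SE was 0.19. The number of arrays limits the precision.

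Named genes were the 12 largest rises and falls that passed, had 1 direction in all cultures and exceeded background in the higher group; in each gene group the 4 largest changes that passed and the largest opposite one; the 6 largest turning transcripts in each direction; and all nitrogen and TORC1 regulators. A gene was represented by its brightest probe set; for 49 further probe sets of 47 genes, 13 differed from it in passing the test and 0 passed in the opposite direction. Members of a group with no probe set of their own were not analysed here. HXT7, VBA3, HTA2 and one probe set of YGR174W-A were read by probe sets of the kind with shared probes. Their values may include other transcripts. The groups, members and rule were chosen with earlier results of these data known. The smallest group had 10 measured genes. Alternatives were other blocks, fewer arrays, quantile normalization, median centring, 50 units added, dim or shared probe sets left out, no trend, and each culture left out.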

Additional observations from a re-analysis of the deposited data

Results flagged for a closer look

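The named transcripts that turned were marked because their changes in the 2 intervals differed by the test of the difference itself (limma, adjusted over all transcripts). The change from 7 to 24 min minus the change from -10 to 7 min was 1.88 for YOR338W, 1.17 for CTF13, 1.06 for YKL068W-A, 0.89 for HOP2, 0.87 for RAD28 and 0.78 for ECM2, all on the log2 scale. CTF13 and HOP2 had values at background, so their differences are not folds. On the negative side it was -1.57 for FMP48, -1.41 for MEP1, -1.14 for YER053C-A, -0.90 for RSB1, -0.73 for RPI1 and -0.59 for GAT1. The 7 min value enters both intervals with opposite signs, so a high or low reading at 7 min alone moves these differences, and they were selected for opposite signs. In BY009, in which fewer transcripts had moved by 7 min, FMP48, MEP1, GAT1, YER053C-A, RSB1 and RPI1 were each lower at 7 min than in both other cultures. No group of arrays was large enough to test for a single outlying sample.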

How the results depend on the processing

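Without the replicate block 4225 transcripts passed and with culture as a random block 4220, against 4145. The count of transcripts that passed stayed between 4056 and 4362 over the settings that kept all 3 cultures, 4056 being the count without probe sets that share probes and 4362 that after quantile normalization; it lay between 3553 and 4297 when 1 culture was left out. The count over 2-fold lay between 555 (with 50 units added) and 648 (without BY013). The test of the second change minus the first gave 1552 transcripts without BY010, 1822 without BY013 and 2666 without BY009, against 2502; without BY010, 1 pair fewer was fitted. That test could not be made from the 6 arrays alone. Of 197 named transcripts, 175 kept their direction and their side of the threshold under every setting.

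Among single genes, direction turned only for 6 that had not passed. FHL1 gave 0.20 and LST8 and PUT3 gave -0.00 and -0.02, the first after quantile normalization and the others after median centring. With 1 culture left out FHL1 lay between -0.07 and 0.01, LST8 between -0.03 and 0.09, PUT3 between -0.06 and 0.09, PPH21 between -0.05 and 0.04, CIN5 between -0.40 and 0.02, and TOR2 between -0.11 and 0.01. Among group medians, glycolysis gave 0.00 after quantile normalization, ergosterol synthesis -0.00 after median centring, and hexose transporters -0.01 without dim probe sets. Of 30 group medians, 14 others moved by more than the spread between cultures after quantile normalization and 10 others after median centring; no group median shifted by more than 0.13 and 0.04 under these. Without shared probe sets the small subunit median was -0.58. Named transcripts that passed lost the call as follows: without BY013, DAL81 (0.18), GCN4 (-0.08), HSP30 (-0.31), HXT8 (0.49), RPI1 (-0.19), SEA4 (-0.17) and SSY1 (0.20); without BY010, DAL81 (0.15), GCN4 (-0.07), HOP2 (0.39), HSP30 (-0.28), HXT8 (0.54), RTG3 (-0.22), SEA4 (-0.16), SFP1 (-0.18) and SSY1 (0.25); without BY009, SEA4 (-0.08); after quantile normalization, GCN4 (-0.01) and RTG3 (-0.13); and SEA4 with 50 units added or no trend. Named transcripts that had not passed gained the call: CIN5 (-0.40), GZF3 (-0.15) and TCO89 (0.14) without BY009; TOR2 (-0.13), TCO89 (0.14), PPH21 (-0.11), PPH22 (-0.14), VAM6 (0.18), DOT6 (-0.13) and RTG1 (0.44) after quantile normalization; GZF3 (-0.14) after median centring; VAM6 (0.10) with no trend; and TCO89 (0.12) without the block or with a random block. Apart from fewer samples, the cause was not tested. Levels near background or above 16384 units limit what a fold can show.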
